A study of Homo sapiens with 64 samples.

Results

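The 9 genes described here drive the step from G1 into S phase: the D-type cyclins CCND1 and CCND3, the E-type cyclins CCNE1 and CCNE2, cyclin A2 (CCNA2), the kinases CDK2, CDK4 and CDK6, and the phosphatase CDC25A. They were taken by name from the deposited tables, where each of the 9 was found among 26364 gene symbols of the C4-2 time course, 25207 of the HEK293T time course, 26364 of the immunoprecipitation table and 31796 of the SLAM-seq files. The list was chosen from a measured value: at 0 h in C4-2 cells CCNE1 was the S phase gene that was not lower after FBL knockdown, so the 0 h contrast in C4-2 is a description here and carries no test.

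The study lowered FBL (fibrillarin, the enzyme that adds 2′-O-methyl groups to RNA within box C/D particles) or its partner NOP56 (a scaffold protein of the same particles) in human cell lines and followed mRNA over time to ask whether FBL alters mRNA stability. HEK293T, an embryonic kidney line carrying the SV40 large T antigen, received siCTRL, siFBL or siNOP56 and was sampled at 0, 6, 12 and 24 h, with 2 libraries per siRNA and hour (24 in all). The siNOP56 groups are named shNOP56 in the series design. C4-2, an androgen-independent prostate cancer line, received siCTRL or siFBL and was sampled at 0, 3, 6 and 12 h, with 2 libraries each (16 in all), called A and B because a column of that table identifies its siRNA and hour but no single sample. C4-2 cells with siCTRL also gave 2 libraries of RNA immunoprecipitated with an antibody against FBL (RIP) and 2 input libraries. C4-2 cells with siCTRL or siFBL gave 16 SLAM-seq libraries. Their sample labels name 0, 6, 12 and 24 h, with 2 libraries per siRNA and hour. All 16 came from cells given 4-thiouridine (100 µM, 24 h) before a uridine chase (10 mM). The series design gives mRNA half-life as the purpose of the hours, but the means of blocking transcription in the time courses is not given in the sources read here.

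In cycling cells, D-type cyclins bind CDK4 and CDK6 and begin to phosphorylate the retinoblastoma protein, which releases E2F transcription factors. E2F factors then raise cyclin E, cyclin A and CDC25A mRNA, and cyclin E with CDK2 completes the phosphorylation. CDC25A removes the inhibitory phosphates from CDK2, and p21 (CDKN1A) blocks the same kinases. Many mRNAs of this pathway are short-lived, and AU-rich sequences in the 3′ UTR, whose core is ATTTA, are known to speed decay.

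The members' 3′ UTRs and promoters were searched for the AU-rich core and for E2F-type motifs, with no test against their courses. In the 3′ UTRs of the GENCODE release 29 transcripts, ATTTA occurred 11 times in the 1862 bases of CCNE2, 4 times in the 1799 of CDC25A, 3 times in the 1194 of CCNA2, 7 times in the 3192 of CCND1, 2 times each in CCND3 and CDK2 and 26 times in the 10219 of CDK6. CCNE1 and CDK4 held none in 531 and 798 bases, whereas 54.5% and 68.5% of genes with 3′ UTRs within 20% of those lengths held at least 1. Per kilobase, CCNE2 with 5.91 ATTTA stood at percentile 93.4 of 17657 genes, while the other carriers stood between percentile 52.4 and percentile 65.7. The first ATTTA of the 3′ UTR is given in a 30-base stretch, with ATTTA in capitals, for CDC25A and CCNA2, the members that fell fastest in C4-2 and in HEK293T, and for CCND1, whose slope relative to the average mRNA was not negative in either (GRCh38 3:48158496-48158525, minus strand; 4:121817342-121817371, minus strand; 11:69652669-69652698, plus strand).
CDC25A: tccatatgtttaATTTAttcaacttcatca
CCNA2: tttgcaagtcaaATTTAacttcttcaggat
CCND1: ctaaaatatataATTTAtagttaaggctaa
Promoter windows of 300 bases (250 before to 50 after the start, RefSeq, GRCh38.p14) were matched for 6 members: CCND3, CCNE1, CCNA2, CDK4, CDK6 and CDC25A. The E2F-type motifs TTTCCCGC, TTTGGCGC, TTTCGCGC and TTTGCCGC, none of which contains another, were sought on both strands. They were found in 3.31% of all 35116 windows and, among the members, in CDC25A, 44 bases before its start on the strand of the gene (3:48188443-48188472, minus strand, motif in capitals). A match is a description of letters and shows no binding.
CDC25A: ggtggattccgTTTGGCGCcaactaggaaa

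Libraries held 79030570 to 106116071 counts in the C4-2 time course, 15957331 to 19881543 in HEK293T and 22909634 to 33270113 in the RIP set, and about 14308365 to 60310841 mapped reads in SLAM-seq. Levels are in CPM, counts relative to the library's total, scaled with trimmed mean of M-values (TMM) factors, which set the average mRNA of a library as the reference. Differences are given on the log2 scale, with p-values from edgeR (quasi-likelihood fit) adjusted by Benjamini-Hochberg over every gene tested, and a member was called at an adjusted p below 0.05. At 0 h siFBL left FBL mRNA 89.3-fold lower in C4-2 and 19.1-fold lower in HEK293T, and NOP56 was 2.43-fold lower with siNOP56. All 9 prostate markers checked, among them KLK3 and KLK2, lay above 1 CPM in C4-2, while KLK3, KLK2 and TMPRSS2 lay below 0.1 CPM in HEK293T, which held all 6 of its own markers. Leukocyte markers summed to between 0.416 and 6.22 CPM over the 60 libraries. In these bulk samples fewer cells in a phase of the cycle and less RNA per cell cannot be told apart.

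Under siCTRL at 0 h, the kinase CDK4 was the most abundant member per kilobase of transcript in both lines. In C4-2, CDK4 reached 125 ± 1.49 CPM per kilobase (SD, n = 2). CCND1 (86.6 ± 10.1), CCND3 (75.2 ± 2.50), CDK2 (46.5 ± 3.34), CCNA2 (35.7 ± 2.77), CCNE2 (13.1 ± 0.971), CCNE1 (11.7 ± 0.775), CDC25A (10.9 ± 1.36) and CDK6 (1.35 ± 0.156) followed in CPM per kilobase. CCND1 and CCND3 differed by less than the sum of their SDs, as did CCNE2 and CCNE1, and CCNE1 and CDC25A. In HEK293T the order in CPM per kilobase was CDK4 (93.5 ± 1.85), CCNA2 (48.9 ± 2.03), CDK2 (47.3 ± 0.634), CCND3 (32.2 ± 0.276), CDC25A (29.95 ± 0.745), CCNE1 (17.1 ± 0.935), CCND1 (15.6 ± 0.321), CDK6 (4.92 ± 0.0703) and CCNE2 (3.85 ± 0.354), and here only CCNA2 and CDK2, as neighbours, differed by less than the sum of their SDs. So CCND1 stood in the upper ranks in C4-2 and in the lower ranks in HEK293T, where CCNE2 came last. The lines were counted in separate tables, and these levels were not tested against each other.

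At 0 h in C4-2 the cyclins and kinases split into those that lay lower with siFBL and those that did not, which is the contrast the list came from. CCNE1 had 25.1 and 22.9 CPM with siCTRL and 18.5 and 31.4 CPM with siFBL, so the groups overlapped (log2 0.06, SE 0.299). CCND1, the D-type cyclin most responsive to growth signals, overlapped too, with 404 and 342 CPM against 397 and 464 CPM. The other E-type cyclin, CCNE2, had 45.8 and 41.2 CPM with siCTRL and 10.5 and 4.82 CPM with siFBL (log2 −2.50, SE 0.649). In each of the remaining 6 members both siFBL libraries also lay below both siCTRL libraries, by log2 −2.36 for CCNA2, −1.72 for CDC25A, −1.44 for CDK2, −0.97 for CDK6, −0.89 for CCND3 and −0.56 for CDK4. Of all 23437 genes tested in this contrast 8.48% were called, 6.87% lower and 1.61% higher, and nothing is read from that share for genes chosen here.

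**Figure D1:**
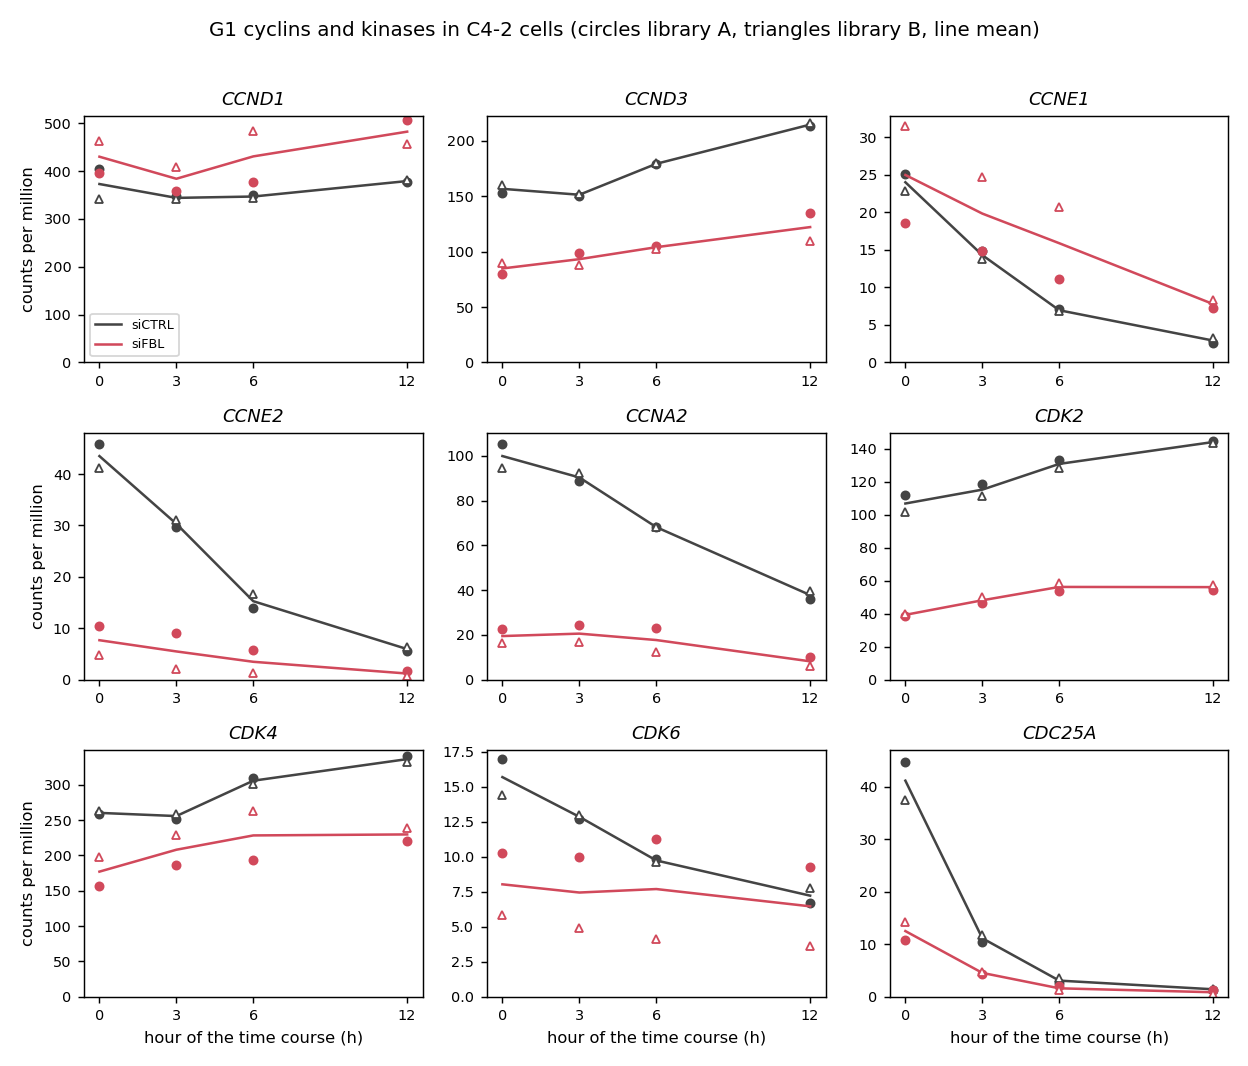
CPM of each member against the hour of the C4-2 time course, with siCTRL in grey and siFBL in red; circles are library A, triangles library B and lines the mean of the 2 libraries. CCNE1 with siFBL lay above siCTRL at 6 and 12 h, while CCNE2, CCNA2, CDK2 and CCND3 lay below siCTRL at every hour, and CDK6 libraries A and B lay on either side of siCTRL from 6 h on.

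At the later hours CCNE1 was higher with siFBL and the rest of the S phase members were lower. The choice of genes did not use these libraries, but they continue the same knockdown course. They are therefore no independent check of the 0 h contrast. CCNE1 fell with the hours under siCTRL, from 14.8 and 13.8 CPM at 3 h to 7.08 and 6.83 CPM at 6 h and 2.60 and 3.23 CPM at 12 h. With siFBL it held 14.9 and 24.7 CPM at 3 h, 11.1 and 20.7 CPM at 6 h and 7.20 and 8.36 CPM at 12 h. Both siFBL libraries thus lay above both siCTRL libraries at each of the 3 hours, and the difference was log2 0.47 (SE 0.301) at 3 h, 1.19 (SE 0.306) at 6 h and 1.42 (SE 0.314) at 12 h. Averaged over 3, 6 and 12 h, CCNE1 was 2.04-fold higher (log2 1.03, SE 0.177, edgeR adjusted p = 0.000331).

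Counted over the same mean of 3, 6 and 12 h, 8 of the 9 members were called, 2 higher and 6 lower, where 34.6% of all 23437 genes were called (12.7% higher and 21.9% lower). The members' median difference was log2 −0.77, beside 0.09 over all genes. The list came from the 0 h values of the same course, so this count is a description of the chosen genes. The fit takes libraries of different hours as independent. With the counts summed over the 3 hours, which leaves 2 libraries a group, 4 members were called, where 3587 genes were called in all. These members were CCNA2, CDK2, CCND3 and CDC25A. In that fit CCNE1 was log2 0.79 higher (SE 0.256, edgeR adjusted p = 0.0901), CCNE2 had an adjusted p of 0.0587, CDK4 of 0.0729 and CCND1 of 0.0860.

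Among the cyclins, CCNA2, which works with CDK2 through S phase, was 4.28-fold lower (log2 −2.10, SE 0.161, edgeR adjusted p = 7.72e-08). It had 68.0 and 68.3 CPM with siCTRL and 23.0 and 12.4 CPM with siFBL at 6 h. CCNE2 was 4.97-fold lower (log2 −2.31, SE 0.380, edgeR adjusted p = 0.000216), with 14.0 and 16.6 CPM against 5.71 and 1.22 CPM at 6 h. The groups of CCNA2 and of CCNE2 did not overlap at any hour. CCND3 was 1.70-fold lower (log2 −0.77, SE 0.0748, edgeR adjusted p = 1.18e-06) and CCND1 was 1.21-fold higher (log2 0.27, SE 0.0797, edgeR adjusted p = 0.0150), so the D-type cyclins moved in opposite directions.

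Of the kinases, CDK2, the partner of cyclins E and A, was 2.43-fold lower (log2 −1.28, SE 0.0713, edgeR adjusted p = 2.82e-09), from 133 and 128 CPM to 53.6 and 58.7 CPM at 6 h. Its difference was nearly the same at each hour, between log2 −1.22 and log2 −1.36. CDK4, a partner of the D-type cyclins, was 1.34-fold lower (log2 −0.42, SE 0.0882, edgeR adjusted p = 0.00156). The phosphatase CDC25A was 1.98-fold lower (log2 −0.99, SE 0.189, edgeR adjusted p = 0.000792), from 2.63 and 3.51 CPM to 1.98 and 1.22 CPM at 6 h. CDK6, the other partner of the D-type cyclins, had log2 −0.43 (SE 0.262, edgeR adjusted p = 0.216): at 6 h libraries A and B with siFBL held 11.3 and 4.12 CPM, on either side of 9.85 and 9.63 CPM with siCTRL.

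For CCNE1, CCNE2 and CDK6 the siFBL libraries A and B differed from each other. Against siCTRL, the A libraries alone gave CCNE1 log2 0.70 and CCNE2 −1.64 over 3, 6 and 12 h, and the B libraries alone gave CCNE1 1.29 and CCNE2 −3.58, in alternatives chosen after seeing the data. CDK6 was log2 0.09 with A alone and −1.21 with B alone. FBL read 3.63 CPM at 0 h and 0.601 CPM at 12 h in the A libraries, and 2.76 and 1.75 CPM in the B libraries, and the part of this in the members' spread was not tested. These fits hold 1 siFBL library an hour, which is assumed to vary like the other groups, so their counts of calls are not given.

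The ratio of the 2 cyclin E mRNAs within a library needs no scaling between libraries. CCNE1 counts per CCNE2 count ranged from 0.412 to 0.555 over the 8 siCTRL libraries of C4-2. They ranged from 1.66 to 4.25 over the 4 siFBL A libraries and from 6.51 to 16.9 over the 4 siFBL B libraries. The siRNA groups did not overlap at 3, 6 or 12 h, and the 0 h ratios restate the contrast the list came from.

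**Figure D2:**
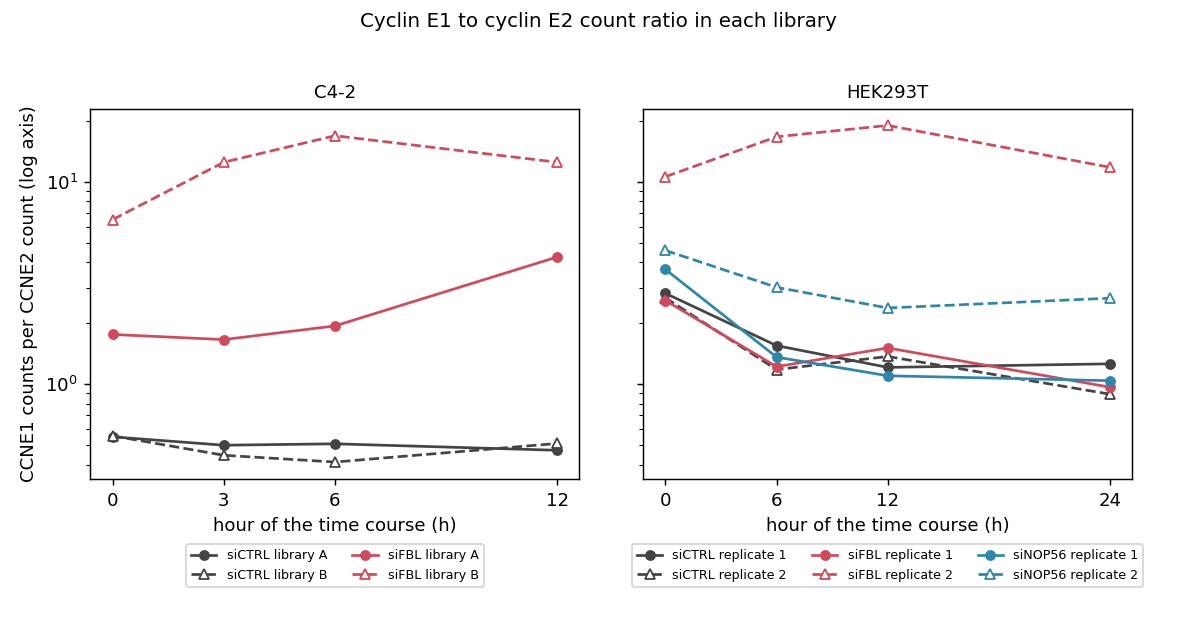
CCNE1 counts per CCNE2 count in each library (log axis) against the hour, for C4-2 on the left and HEK293T on the right; colours are siRNAs, solid lines library A or replicate 1 and dashed lines library B or replicate 2. In C4-2 every siFBL library lay above 1.65 and every siCTRL library below 0.556, while in HEK293T siFBL replicate 2, at 10.6 to 19.0, and siNOP56 replicate 2, at 2.38 to 4.58, lay above both siCTRL libraries at every hour.

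Other genes of the G1 pathway were followed through lists of whole families and complexes. In C4-2 at 3, 6 and 12 h, where 21.9% of all genes were lower and 12.7% higher, 4 of 7 CDK inhibitors were lower and 2 higher. CDKN1A (p21) stood apart at log2 4.58 (SE 0.332, edgeR adjusted p = 4.47e-08). Of the 10 RB and E2F family genes 8 were lower and 1 higher, led by E2F2, an activator of S phase genes, at log2 −2.61. The CDK-activating kinase (CDK7, CCNH and MNAT1) had 3 of 3 lower and the SCF ubiquitin ligase list 3 of 5 lower. Among 8 other cyclins, CDK1 and its switches, 7 were lower and 1 higher, led by CDK1 and CCNB1 (both log2 −2.22), PKMYT1 (−2.20) and CCNB2 (−2.14), which act at entry into mitosis. The medians of these lists were log2 −0.77, −0.84, −0.43, −0.64 and −2.03 in that order, beside 0.09 over all genes. This fit takes the hours as independent, and with their counts summed 3587 genes were called in place of 8100. The lists were not counted with the hours summed.

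In HEK293T no member was called at 0 h with siFBL, where 1.74% of 14939 genes were called (0.930% higher and 0.810% lower) and 1 member passed at an unadjusted p below 0.05, or with siNOP56 (0.187% called, 0.120% higher and 0.0669% lower, no member at an unadjusted p). CCNE1 had 33.7 and 36.4 CPM with siCTRL, 28.8 and 60.6 CPM with siFBL and 35.6 and 26.3 CPM with siNOP56. The libraries of siFBL lay on either side of siCTRL. DESeq2 also called no member in either contrast.

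Later, CCNE1 in HEK293T was far above all other libraries in siFBL replicate 2. At 6, 12 and 24 h it read 52.6, 51.0 and 49.3 CPM in siFBL replicate 2, against 9.71, 7.77 and 5.57 CPM in siFBL replicate 1. With siCTRL it read 12.9 and 11.1 CPM at 6 h, 8.47 and 8.99 CPM at 12 h and 7.44 and 7.63 CPM at 24 h. Replicate 1 of siFBL thus lay below both siCTRL libraries at every later hour and replicate 2 far above them. The mean of 6, 12 and 24 h was log2 1.66 higher with siFBL (SE 0.497, edgeR adjusted p = 0.0144), yet −0.31 with replicate 1 alone (edgeR adjusted p = 0.202) and 2.46 with replicate 2 alone, alternatives chosen after seeing the data.

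**Figure D3:**
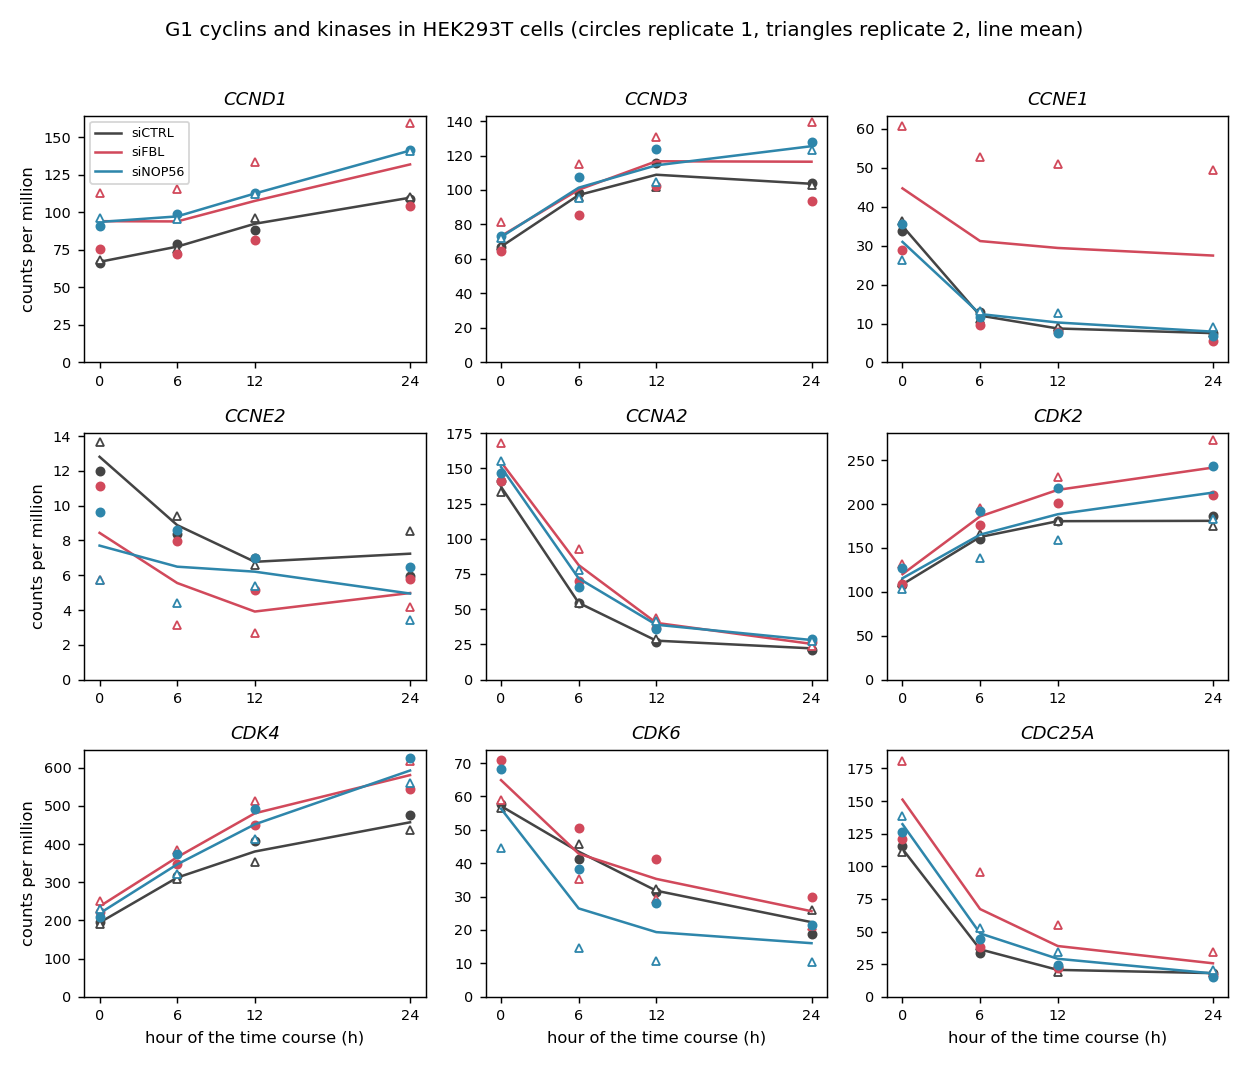
CPM of each member against the hour of the HEK293T time course, with siCTRL in grey, siFBL in red and siNOP56 in blue; circles are replicate 1, triangles replicate 2 and lines their mean. CCNE1 in siFBL replicate 2 stayed at 49.3 CPM at 24 h where the other 5 libraries of that hour lay between 5.57 and 9.08 CPM, and CDK6 in siNOP56 replicate 2 lay below the other libraries from 6 h on.

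Over the same mean, 5 of 9 members were called in HEK293T with siFBL, all higher: CCNE1, CCNA2 (log2 0.44), CDK2 (0.29), CDK4 (0.30) and CDC25A (0.77). In all, 39.7% of genes were called, 21.1% higher and 18.6% lower. With the counts of the hours summed, 0 of the 9 members and 4 of all genes were called. Of these, the call of CDK2 (SE 0.112, edgeR adjusted p = 0.0487) was lost in 13 of 20 alternatives and that of CDC25A in 6. With 1 siFBL replicate alone, which leaves 1 library an hour, assumed to vary like the other groups, CCNA2 had log2 0.35 with replicate 1 and 0.51 with replicate 2. CDC25A was likewise high in replicate 2: it held 38.5 and 95.9 CPM at 6 h with siFBL, against 33.8 and 38.8 CPM with siCTRL, and replicate 1 alone gave log2 0.03.

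For 4 members both siFBL replicates lay on the same side of both siCTRL replicates at 6, 12 and 24 h in HEK293T: CCNA2, CDK2 and CDK4 above, and CCNE2 below (log2 −0.67, SE 0.270, edgeR adjusted p = 0.0578). CCNA2 had 54.7 and 54.3 CPM with siCTRL and 70.3 and 92.4 CPM with siFBL at 6 h, 26.8 and 28.5 against 36.8 and 43.7 CPM at 12 h, and 21.3 and 23.1 against 26.8 and 23.9 CPM at 24 h. Its mean difference was log2 0.44 (SE 0.0885, edgeR adjusted p = 0.00107). CDK4 had 408 and 353 CPM with siCTRL and 449 and 512.5 CPM with siFBL at 12 h (mean log2 0.30, SE 0.0752, edgeR adjusted p = 0.00458). CCNE2 had 6.97 and 6.57 CPM with siCTRL and 5.14 and 2.69 CPM with siFBL at 12 h. CCNA2, CDK2 and CDK4 were thus called higher with siFBL in HEK293T and lower in C4-2, as was CDC25A. None of these HEK293T calls held with the hours summed.

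FBL with siFBL read 17.7 CPM at 0 h and 7.19 CPM at 24 h in HEK293T replicate 1, and 15.5 and 14.8 CPM in replicate 2. NOP56 in the same libraries went from 359.5 and 354 CPM to 139.5 and 138 CPM. With siCTRL NOP56 read 206 and 204 CPM at 0 h and 166 and 160 CPM at 24 h. The part of the FBL course in the CCNE1 values was not tested.

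With siNOP56 at 6, 12 and 24 h, 2 members were called, CCNA2 (log2 0.41, SE 0.0885, edgeR adjusted p = 0.00333) and CDK4 (log2 0.26, SE 0.0752, edgeR adjusted p = 0.0188), both higher, where 27.0% of genes were called, 14.7% higher and 12.3% lower. With counts summed over the hours none of the members and none of all genes were called. CCNE1 had log2 0.12 (95% interval −0.86 to 1.10). CDK6 had log2 −0.64 (SE 0.259, edgeR adjusted p = 0.0766), with 14.6 CPM in replicate 2 and 38.4 CPM in replicate 1 at 6 h against 41.3 and 45.6 CPM with siCTRL. Both siRNAs were compared with the same siCTRL libraries.

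Set against each other over all hours, siFBL and siNOP56 gave no called member where 14.3% of genes were called (7.24% higher and 7.02% lower), and 2 members passed at an unadjusted p below 0.05. CCNE1 was closest, with log2 1.29 (SE 0.422, 95% interval 0.46 to 2.12, edgeR adjusted p = 0.0510). It was called in 8 of 24 alternatives, and siFBL replicate 1 alone gave log2 −0.34.

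The same pathway lists were followed in HEK293T, where 21.1% of all genes were higher and 18.6% lower with siFBL at the later hours, but only 4 of all genes were called with the hours summed. The lists were not compared between the lines. With siFBL, 2 of 7 CDK inhibitors were higher, CDKN1A (log2 1.06) and CDKN2B (0.77), and 4 of 10 RB and E2F family genes were higher and 2 lower, led by E2F5 (1.30) and E2F2 (−1.14). None of the 3 CDK-activating kinase genes and none of the 5 SCF genes was called. Of the 8 other cyclins, CDK1 and its switches, 2 were higher. With siNOP56, E2F5 (0.88) and E2F2 (−0.86) led as well, and 2 of 7 CDK inhibitors were higher. There 14.7% of all genes were higher and 12.3% lower, and with the hours summed no gene was called.

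The siFBL effect itself was compared between the lines in 1 model of both tables at 6 and 12 h, the hours they share. It was more negative in C4-2 for 5 members, where 26.8% of 17634 genes were called (13.7% more negative and 13.1% more positive): CCNA2 (log2 −2.43, SE 0.224, edgeR adjusted p = 1.07e-08), CDC25A (−1.54), CDK2 (−1.30), CCND3 (−0.66) and CDK4 (−0.55). No member was called more positive. This fit takes the 2 hours as independent libraries. With their counts summed, chosen after seeing the data, 1710 genes were called in place of 4725. Among them were CCNA2 (log2 −2.46, edgeR adjusted p = 0.00592) and CDK2 (−1.34, edgeR adjusted p = 0.00519), while CCND3, CDK4 and CDC25A had adjusted p-values of 0.0799, 0.107 and 0.120. CCNE1 differed by log2 −0.04 (SE 0.704, 95% interval −1.43 to 1.34), an interval that leaves room for differences of either sign, and by 1.70 with HEK293T siFBL replicate 1 alone and −0.89 with replicate 2 alone. The CDKN1A effect was log2 3.61 larger in C4-2 (SE 0.528, edgeR adjusted p = 1.2e-05). Line, table and depth cannot be told apart in this comparison.

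**Figure D4:**
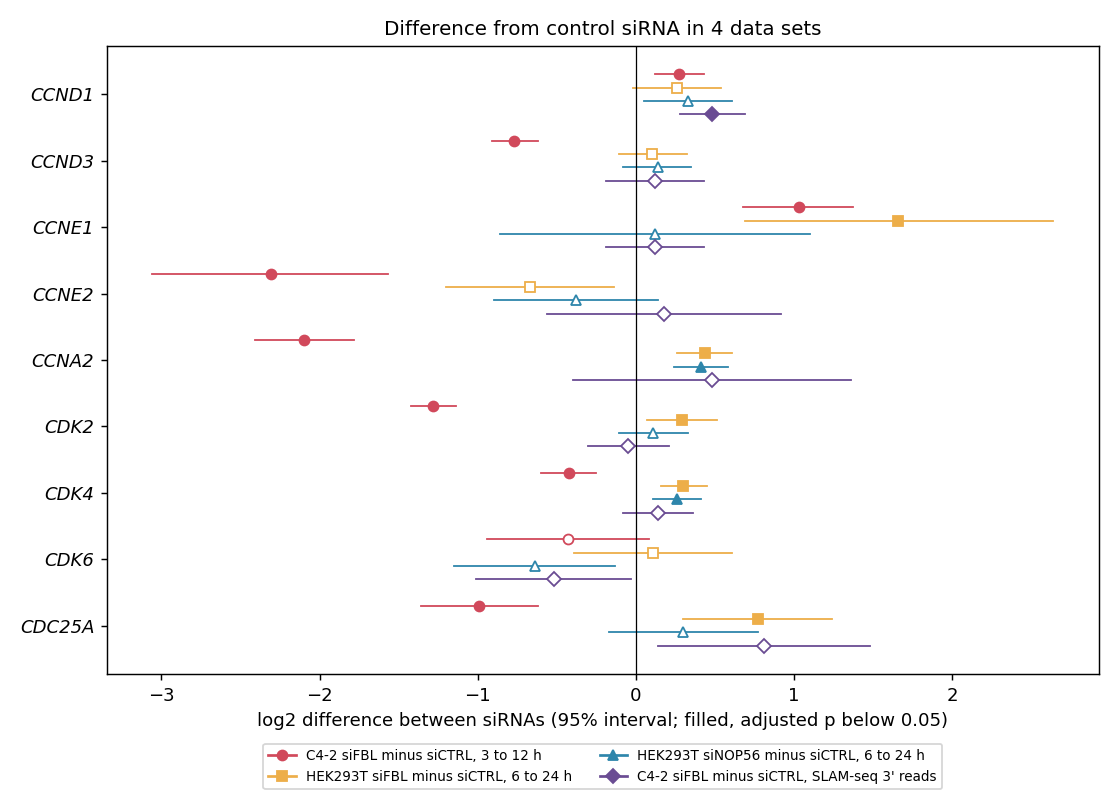
Log2 difference from siCTRL for each member in 4 data sets, with 95% intervals; filled symbols had an edgeR adjusted p below 0.05. CCNE1 at log2 1.03 lay to the right in the C4-2 time course while CCNE2, CCNA2, CDK2 and CCND3 lay to the left, and in HEK293T with siFBL CCNA2 and CDK2 lay to the right of 0 at 0.44 and 0.29.

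The course over the hours under siCTRL differed among the members. It is given as a slope in log2 per hour relative to the average mRNA, so that a positive slope cannot tell a slower loss from a gain. In C4-2, CDC25A fell fastest at −0.401 (SE 0.045), followed by CCNE1 at −0.256 (SE 0.025), CCNE2 at −0.246 (SE 0.051), CCNA2 at −0.122 (SE 0.024) and CDK6 at −0.094 (SE 0.035). At 12 h CDC25A stood at 3.45% of its 0 h CPM, CCNE1 at 12.2% and CCNE2 at 13.7%, which like the slopes are relative to the average mRNA. CCND3, CDK2 and CDK4 had slopes of 0.042, 0.037 and 0.035, and CCND1 of 0.004. All but CCND1 were called, where 35.0% of 22869 genes were (15.9% higher and 19.2% lower), and the calls of CDK6 (edgeR adjusted p = 0.0413) and CDK4 were lost in 8 and 4 of 13 alternatives. With scaling to ribosomal protein mRNAs the slopes of CCND1, CCND3, CDK2 and CDK4 turned to −0.088, −0.051, −0.056 and −0.058.

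In HEK293T the same 5 members as in C4-2 had negative slopes: CCNA2 −0.106 (SE 0.015), CDC25A −0.105 (SE 0.021), CCNE1 −0.086 (SE 0.031), CDK6 −0.056 (SE 0.018) and CCNE2 −0.032 (SE 0.018), of which CCNE2 was not called. CDK4 (0.047), CCND1 (0.030) and CDK2 (0.026) were called with positive slopes, of which those of CCND1 and CDK2 turned to −0.012 and −0.014 with scaling to ribosomal protein mRNAs. In all 7 members were called, where 50.8% of 14712 genes were (22.2% higher and 28.6% lower). The tables cover 12 and 24 h, and the slopes of the 2 lines were not tested against each other.

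No slope difference between siRNAs was called. edgeR called no gene in C4-2 over 3 to 12 h, in HEK293T with siFBL or in HEK293T with siNOP56 (0% each), while 940, 443 and 185 genes passed at an unadjusted p below 0.05 and DESeq2 called 15, 6 and 3. CCNE1 in C4-2 was the 1 member at an unadjusted p below 0.05: its slope was 0.10 per hour less negative with siFBL (SE 0.0444, 95% interval 0.01 to 0.19, edgeR adjusted p = 1). At 12 h CCNE1 stood at 31.2% of its 0 h CPM with siFBL and 12.2% with siCTRL, and CCNE2 at 15.4% and 13.7%. These percentages divide by the 0 h values the list came from, so they are a description and no support for a slope difference.

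SLAM-seq marks RNA made during labelling by T>C conversions and counts reads at the 3′ end of each mRNA. Labelling was with 100 µM 4-thiouridine for 24 h, followed by a chase with 10 mM uridine. The T>C share after the chase thus stands for RNA made before it. In 12 of 16 libraries the label and the file header named different hours, and the T>C share did not fall from labelled 0 h to 24 h in replicate 2 of either siRNA. By labelled hour no gene was called in the T>C share (0%), and 16 genes passed at an unadjusted p below 0.05. Shares by header hour are therefore given as a description. The 2 libraries per siRNA and header hour carry the same replicate number, 1 at header 0 and 12 h and 2 at header 6 and 24 h. They may therefore not be separate replicates. No molecular identifiers are stated, so exact binomial (Clopper-Pearson) intervals cover counting error only.

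By header hour under siCTRL, CCNE1 and CDC25A, which had the steepest slopes in the time course, held the lowest shares of labelled reads at 6 h. CCNE1 had T>C conversions in 83.0% of 512 reads at 0 h, 9.09% of 847 at 6 h (95% interval 7.24 to 11.2%) and 5.53% of 1319 at 12 h. CDC25A had 75.3%, 8.66% (4.40 to 15.0%) and 7.41%, and CCNE2 had 84.5%, 17.3% (9.57 to 27.8%) and 5.79%. The 2 CCNE2 libraries at 6 h held 33.3% of 30 reads and 6.67% of 45, so its place is uncertain. At 6 h the share was 38.5% of reads for CDK4, 36.4% for CDK6, 35.6% for CCND3, 33.9% for CCND1 and 33.3% for CDK2. By 12 h CCND1 (6.75%) and CDK6 (7.33%) lay among CCNE1, CCNE2 and CDC25A, while CCND3 (14.5%), CDK2 (14.6%) and CDK4 (15.0%) lay above, so the order of 6 h did not hold for CCND1 and CDK6. CCNA2 rested on 41 reads at 6 h, with 9.09% in 1 library and 93.3% in the other, and gives no order.

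**Figure D5:**
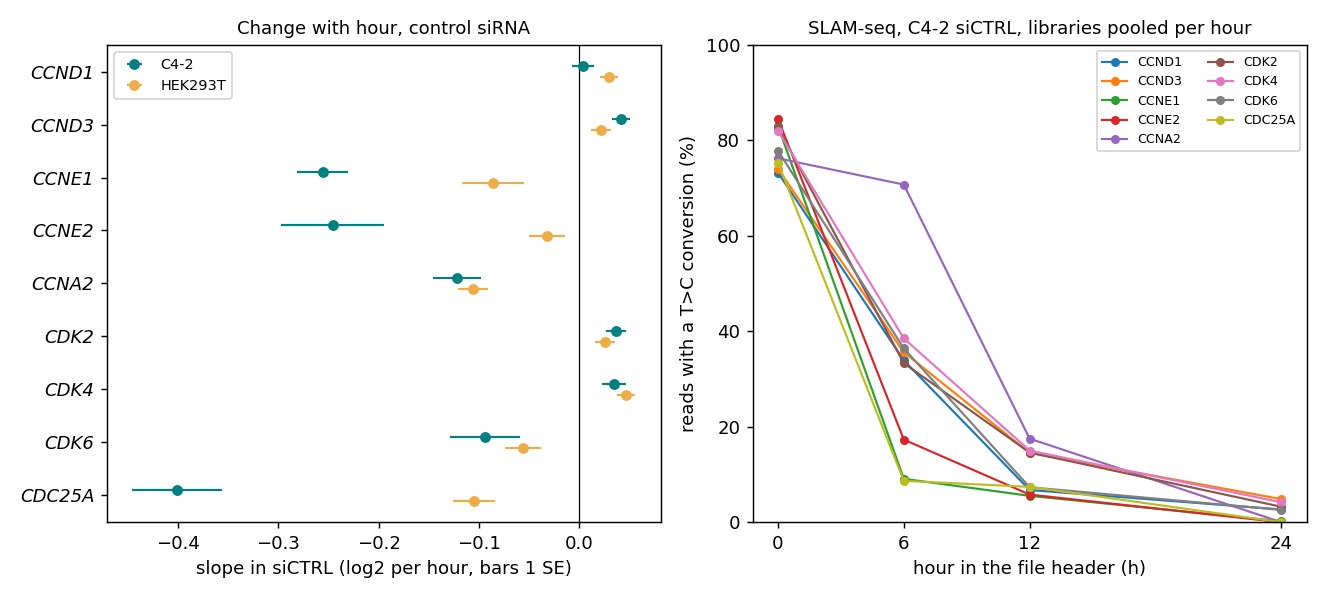
Left, slope of each member over the hours under siCTRL in log2 per hour relative to the average mRNA, with bars of 1 SE, in C4-2 and HEK293T. Right, percent of SLAM-seq reads with a T>C conversion in C4-2 with siCTRL against the hour in the file header, libraries pooled per hour; at 6 h CCNE1 and CDC25A lay at 9.09% and 8.66% and CDK4 at 38.5%.

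With siFBL, CCNE1 reads with T>C made up 67.1% at header 0 h, 18.4% at 6 h (11.4% and 21.7% in the 2 libraries, against 7.18% and 10.5% with siCTRL) and 1.32% at 12 h (5.53% with siCTRL). The siFBL share was thus lower at 0 and 12 h and higher at 6 h and at 24 h (2.15% against 0.196%). For CDC25A it was 47.9%, 36.5% (34.6% and 37.1%, against 7.14% and 20% with siCTRL) and 20% at 0, 6 and 12 h, on 65 to 96 reads an hour. In the fit by header hour, CCND1 (log2 −0.52) and CDK4 (−0.47) were called lower, beside a median of −0.57 over all genes and 3656 genes called. Relative to each library's T>C reads, an alternative chosen after seeing the data, no member was called.

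Total SLAM-seq reads differed from the C4-2 time course. Only CCND1 was called with siFBL, at log2 0.48 (SE 0.105, edgeR adjusted p = 0.0357), where 0.929% of 14207 genes were called, 0.338% higher and 0.591% lower. It lay between 417 and 617 CPM of reads over 8 siCTRL libraries (median 500) and between 566 and 851 over 8 siFBL libraries (median 705). These ranges overlapped with all hours pooled. Within each header hour both siFBL libraries lay above both siCTRL libraries, with 652 to 679 against 553 to 617 CPM at 0 h. At header 24 h they held 846 to 851 against 480 to 490 CPM. The fit by header hour gave log2 0.48 (edgeR adjusted p = 0.000325), where 1655 of 14207 genes were called. That fit takes the same-numbered libraries of a header hour as independent. The call by labelled hour was lost in 12 of 23 alternatives. CCNE1 had log2 0.12 (95% interval −0.19 to 0.43).

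Members that were lower in the C4-2 time course were not called lower here. CDK2 had medians of 96.8 and 92.4 CPM of reads with siCTRL and siFBL, a difference of log2 −0.05 (95% interval −0.30 to 0.21), beside −1.28 in the time course. CCND3 had log2 0.12 (−0.19 to 0.43) beside −0.77, and CDK4 0.14 (−0.08 to 0.36) beside −0.42. CCNA2, CCNE2 and CDC25A had 5 to 163, 9 to 82 and 13 to 178 reads a library, and their intervals reached from −0.40 to 1.36, from −0.56 to 0.92 and from 0.14 to 1.48. FBL had 206 reads over the siCTRL libraries and 3 over the siFBL libraries, but each of them carried a T>C conversion, also at header 24 h, so what these reads are is uncertain and they check no knockdown. CDKN1A had log2 0.86 (SE 0.403, edgeR adjusted p = 0.345), beside 4.58 in the time course, and is given here after its values were seen. The assays count different parts of the mRNA and the 2 sets were not tested against each other.

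In the immunoprecipitation, 8 of 9 members were called, 7 higher and 1 lower in the FBL RIP than in input, where 82.9% of 14967 genes were called (39.9% higher and 43.0% lower). The members' median was log2 1.06 beside −0.11 over all genes. With library totals in place of TMM factors, an alternative chosen after seeing the data, 4 members were higher and 3 lower, with a median of log2 0.12 beside −1.05 over all genes, of which 18.6% were higher and 69.7% lower. CCND1 led under both scalings (log2 1.02 with library totals). It had 279.5 and 269.7 CPM in input and 1090 and 1049 CPM in the RIP (log2 1.96, SE 0.0673, edgeR adjusted p = 7.27e-22). CCNA2 (log2 1.61), CDK2 (1.50), CDK6 (1.17) and CCND3 (1.06) followed, and each stayed higher under every scaling tried, although CCND3 lost its call with library totals (log2 0.12, edgeR adjusted p = 0.111).

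The E-type cyclins parted in the RIP as well. CCNE2 had 8.81 and 7.79 CPM in input and 15.0 and 14.5 CPM in the RIP (log2 0.83, SE 0.108, edgeR adjusted p = 4.1e-08), and log2 −0.12 with library totals. CCNE1 had 28.5 and 29.6 CPM in input and 18.5 and 21.5 CPM in the RIP (log2 −0.54, SE 0.0858, edgeR adjusted p = 1.26e-06), and 0.45 with scaling to ribosomal protein mRNAs. CDK4 (log2 0.67) turned to −0.27 and CDC25A (0.02, not called) to −0.92 with library totals, so that the direction of these 4 depends on the scaling. The ratio of CCNE1 to CCNE2 counts, which needs none, was 3.24 and 3.79 in input and 1.23 and 1.49 in the RIP.

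The input libraries carried the same label of line and siRNA as the siCTRL libraries of the time course but other member ratios. CCNE1 counts per CCNE2 count were 3.24 and 3.79 there, beside 0.412 to 0.555 in the time course. Input held 0.695 and 0.755 CDK4 counts per CDK6 count, beside 15.2 and 18.2 in the time course at 0 h. All 9 prostate markers lay above 1 CPM in input. How the 2 sets differ in library preparation was not tested.

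Across the 16 C4-2 libraries the genes whose log2 CPM followed CCNE1 most closely, of 10026 with at least 5 CPM on average, were MKRN2 (Pearson r 0.986), DCAF10 (0.985), ZNRF1 (0.984), RAB11FIP5 (0.983) and APPBP2 (0.981). These libraries share their siRNA and hour, so r is a description. Among the members CDC25A came nearest at rank 1703 (r 0.658), while CCNE2 had r 0.163. In the 24 HEK293T libraries MAFA (0.951), SLC39A3 (0.950), FLYWCH1 (0.944) and TRAF4 (0.938) were among the first 5 of 10358 genes, and CDC25A stood at rank 155 (0.847). No gene was among the first 5 in both lines.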

How the data were processed

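For both time courses and the RIP the authors deposited read counts by gene symbol, whole numbers of differing totals. The submitters' processing notes name TopHat2 2.1.1, HOMER and Trim Galore, and the builds hg38, GRCh38.p13 and hg19, without saying which step used which. Per the file headers, slamdunk 0.4.3 gave the counts of SLAM-seq reads and T>C reads in each 3′ UTR interval. Its further deposited column of scaled reads is held as a score, from which mapped reads per library were recovered. Use of strand in counting is not given in the sources read here.

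Members and lists were chosen with earlier results of these data known. Each member, 5 pathway lists and 4 marker lists were described; of the pathway lists at most the 6 called genes with the largest log2 per comparison were named, and the 5 genes most like CCNE1 per line, of which 1 in HEK293T is not reported here. Counts were fitted by the quasi-likelihood functions of edgeR 4.0.16 (R 4.3.3) with TMM factors and its standard low-count filter, with 1 mean per siRNA and hour over all libraries of a time course, or with a slope per siRNA. All 9 members passed the filter in each fit. A 95% interval is the log2 difference plus and minus its SE times the normal quantile. SLAM-seq genes were taken at their interval with the most reads, with at least 10 T>C reads for the T>C share. Values per kilobase used the principal transcript of GENCODE release 29. The scripts were tested on simulated data. DESeq2 1.42.0, other scalings, filters, each library left out and summed hours were the alternatives. No label states separate cultures, so p-values measure the spread between libraries, which may be technical. Across hours, deviations of same-numbered HEK293T libraries correlated at −0.0134 to 0.0243 with siCTRL, 0.626 to 0.694 with siFBL and 0.439 to 0.601 with siNOP56, and in C4-2 at −0.0516 to 0.182, so knockdown libraries of different HEK293T hours were not independent. The 4 nanopore libraries were not analysed here.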

Additional observations from a re-analysis of the deposited data

Results flagged for a closer look

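For 5 members the effect of siFBL differed between C4-2 and HEK293T at 6 and 12 h, by the interaction of siRNA and line in edgeR with Benjamini-Hochberg adjustment. CCNA2 differed most, by log2 −2.43 (SE 0.224, edgeR adjusted p = 1.07e-08): siFBL minus siCTRL was −1.95 and −2.21 in C4-2 and 0.58 and 0.54 in HEK293T. CDC25A differed by −1.54 (SE 0.399, edgeR adjusted p = 0.00503), with −0.94 and −0.73 in C4-2 and 0.89 and 0.92 in HEK293T, and by −0.79 (adjusted p = 0.0584) with HEK293T siFBL replicate 1 alone. CDK2 differed by −1.30 (SE 0.168, edgeR adjusted p = 2.25e-06), CCND3 by −0.66 (SE 0.157, edgeR adjusted p = 0.00250) and CDK4 by −0.55 (SE 0.142, edgeR adjusted p = 0.00480). With the counts of the 2 hours summed, 1710 genes were called in place of 4725. CCNA2 and CDK2 were among them (edgeR adjusted p = 0.00592 and 0.00519) and the other 3 were not (0.0799 to 0.120). In C4-2 all 4 libraries with siFBL at these hours lay below all 4 siCTRL libraries for CCNA2, CDK2, CCND3 and CDK4.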

How the results depend on the processing

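With counts summed over the later hours, members called went from 8 to 4 in C4-2 (8100 to 3587 genes, chosen after seeing the data), from 5 to 0 in HEK293T with siFBL (5932 to 4 genes), from 5 to 2 between the lines (4725 to 1710 genes, also chosen after seeing the data) and from 2 to 0 with siNOP56 (4034 to 0 genes). Fits with siFBL libraries of number 1 alone or of number 2 alone in HEK293T leave 1 siFBL library an hour, assumed to vary like the other groups. Their counts of calls are therefore not given. CCNE1 at the later hours was log2 −0.31 with number 1 and 2.46 with number 2. For siFBL against siNOP56, DESeq2, scaling to ribosomal protein mRNAs and no filter each gave 2 members in place of 0. The share of all genes called in those fits is not given, so nothing is read from these counts. Genes called with siNOP56 at 0 h ranged from 0 to 208 and were 28 in the fit reported. Leaving out 1 library moved the members called between 2 and 7 for siFBL at the later hours of HEK293T (4893 to 6306 of all genes). There, leaving out siFBL replicate 2 of 6, 12 or 24 h gave 2 each. The range was 1 to 3 for siNOP56 at the later hours (2710 to 4501 genes) and 0 to 1 for siFBL against siNOP56 (1326 to 2938 genes). It was 4 to 7 for the HEK293T siCTRL slopes (5117 to 7579 genes) and 0 to 1 for SLAM-seq total reads (75 to 137 genes). By the header hour, SLAM-seq total reads gave 1655 genes in place of 132, and the T>C share gave 2 members and 3656 genes in place of 0. With 1 intercept per siRNA and number, slope differences were called for 31 genes in C4-2 and none of the members.

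Scaling to ribosomal protein mRNAs reversed siCTRL slopes of CCND1 (−0.088), CCND3 (−0.051), CDK2 (−0.056) and CDK4 (−0.058) in C4-2 and of CCND1 (−0.012) and CDK2 (−0.014) in HEK293T, and CCNE1 in the RIP (0.45). Library totals reversed CCNE2 (−0.12), CDK4 (−0.27) and CDC25A (−0.92) in the RIP. With number 1 alone, CCNE1 reversed in HEK293T at the later hours (−0.31) and between the lines (1.70), and with number 2 alone CCND1 reversed against siNOP56 (0.24). The cause was not tested.

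The replicate numbers do not pair samples: between siRNAs at the same hour, same-numbered HEK293T libraries correlated at −0.0170 to 0.101 over 12 pairs. With the number as a replicate block, 4 members were called with siNOP56 at the later hours, where 4988 genes were called. The block gave 6 members with siFBL and 1 for siFBL against siNOP56. These counts are given without the share of all genes, and nothing is read from them. In C4-2 same-numbered columns correlated at −0.141 to 0.0119 over 4 pairs. There the block gave 9 members in place of 8, with CDK6 added, likewise without that share. Depth limits CCNA2, CCNE2 and CDC25A in SLAM-seq, where single libraries held as few as 5 reads.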
